A study of Mus musculus with 18 samples.

Results

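The genes described here are 35 genes of the lysosome, out of 41388 Ensembl genes in the count tables, chosen by name and matched through their Ensembl identifiers. They are 21 soluble lysosomal proteins, 8 lysosomal membrane proteins, 4 genes of lysosomal sorting and mannose-6-phosphate tagging, and 2 transcription regulators, Tfeb and Tfe3. Atp6v0d1 and Atp6v1h are counted as membrane proteins because they are subunits of the V-ATPase, a proton pump of the membrane. They need not span the membrane themselves. All 35 were found, and all 35 passed the filter on low counts in every comparison. The lowest was Gla, with a mean of 98.6 counts per library.

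RNA was sequenced from soleus, a calf muscle rich in slow fibres, and from gastrocnemius, its mainly fast neighbour, of mice aged 12 weeks on chow that had fasted for 4 h. The 4 groups were soleus of knockout mice (4 libraries), soleus of control mice (5), gastrocnemius of knockout mice (4) and gastrocnemius of control mice (5), by the library titles, while the series text gives 4 per group. All mice had floxed alleles of Site-1 Protease, the product of Mbtps1, and knockout mice had HSACre besides, in which a promoter of human skeletal actin confines the Cre recombinase to muscle fibres, so that the other cells of a muscle keep the gene. A control with the Cre alone was not analysed here. No label says whether the libraries came from separate mice, so the p-values may measure a spread that is partly technical.

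Lysosomes break down protein, glycogen, lipid and sugar chains that arrive by autophagy and endocytosis. Most of their soluble enzymes are tagged with mannose-6-phosphate in the Golgi by the phosphotransferase that Gnptab and Gnptg encode, and the receptors M6pr and Igf2r carry them onward. Site-1 Protease is the Golgi enzyme that cuts the Gnptab precursor into its active subunits, besides activating the SREBP and ATF6 transcription factors. Tfeb and Tfe3 switch on many lysosomal genes through an E-box with the core CACGTG, and muscle depends on the glycogen-degrading enzyme Gaa and on Lamp2, whose losses cause Pompe and Danon disease in humans.

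Library totals ranged from 38992432 to 78219534 counts. Levels below are CPM, counts scaled to 1000000 per library on TMM-adjusted library sizes, and only levels divided by gene length (RPKM) are compared between genes. The targeted gene did not show the deletion: Mbtps1 averaged 34.5 ± 2.51 CPM in knockout soleus and 32.3 ± 1.5 CPM in control soleus, and 37.6 ± 3.58 CPM in knockout gastrocnemius and 31.5 ± 2.40 CPM in control gastrocnemius (SD, n = 4 knockout and 5 control). Its mean was higher in the knockout libraries of both muscles, and neither difference had an adjusted p under 0.05 (edgeR). A count over the whole gene may not show the loss of a few exons, and which exons are floxed is not known here. The knockout labels therefore rest on the titles. The muscle labels did match their markers. The fast myosin Myh4 averaged 3560 CPM in knockout soleus and 1950 CPM in control soleus, against 79100 CPM in knockout gastrocnemius and 83200 CPM in control gastrocnemius, and the slow myosin Myh7 averaged 7720 CPM in knockout soleus and 9960 CPM in control soleus, against 257 CPM in knockout gastrocnemius and 453 CPM in control gastrocnemius.

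Per length, 3 members led in every group. Psap, the precursor of the saposins that help enzymes act on sphingolipids, stood at 141 RPKM in knockout and in control soleus, and at 202 RPKM in knockout gastrocnemius and 205 RPKM in control gastrocnemius. Next came Lamp1, the abundant glycoprotein of the lysosomal membrane, at 111 to 122 RPKM over the 4 groups, and Ctsd, the aspartic protease cathepsin D, at 109 to 148 RPKM. At the other end in soleus lay Gla, the alpha-galactosidase, at 0.513 RPKM in knockout and 0.409 RPKM in control libraries, and in gastrocnemius Galns, a sulfatase, at 0.763 RPKM in knockout and 0.483 RPKM in control libraries. In gastrocnemius Gla stood at 0.826 RPKM in knockout and 0.705 RPKM in control libraries, and Cln3, a membrane protein of Batten disease, lay between 0.858 and 1.09 RPKM over the 4 groups. The order was not the same in the 2 muscles. Sort1 ranked ninth in gastrocnemius, at 16.2 RPKM in knockout and 18.1 RPKM in control libraries, whereas it stood at 2.39 RPKM in knockout soleus and 2.01 RPKM in control soleus.

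Promoter sequences were read to show which members carry the letters that Tfeb and Tfe3 are known to bind. RefSeq windows of 300 bases, running from 250 before the annotated start site to 50 after it on GRCm38.p6, were found for 28 of the 35 members. The palindrome CACGTG, which reads alike on both strands, lay in the windows of 13 of these 28 members (46.4%), against 8.09% of all 27025 genes with a window. The longer TCACGTG, on either strand and always containing the shorter one, lay in 11 of 28 (39.3%), against 4.29% of all genes. The full palindrome, in which GT precedes and AC follows the core, was found for Cln3 and Igf2r (7.14% of the 28), against 0.37% of all genes. By class, the core was present for 7 of 18 soluble proteins with a window, 4 of 6 membrane proteins, both sorting genes with a window and neither Tfeb nor Tfe3. A match describes letters and not a bound site. The 5 members shown are Gaa, Cln3, Igf2r, Lamp1 and Mcoln1. Gaa is the only member called in a knockout comparison, that of gastrocnemius (described below). The other 4 have at least 2 cores before the start site in the stretch shown. Of the 2 windows of Cln3, the one shown belongs to the downstream start site, and the upstream one holds no core. Each stretch runs from 160 bases before the start site to 20 after it, on the strand of the gene, and capitals mark CACGTG with any flanking letters that extend the match to TCACGTG or to the full palindrome. On GRCm38.p6 they are chr11:119267803-119267982 (plus strand) for Gaa, chr7:126583217-126583396 (minus strand) for Cln3, chr17:12769687-12769866 (minus strand) for Igf2r, chr8:13159001-13159180 (plus strand) for Lamp1 and chr8:3500359-3500538 (plus strand) for Mcoln1.
Gaa: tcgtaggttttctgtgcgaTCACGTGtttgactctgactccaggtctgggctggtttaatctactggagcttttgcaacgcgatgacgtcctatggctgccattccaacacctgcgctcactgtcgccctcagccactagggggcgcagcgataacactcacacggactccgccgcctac
Cln3: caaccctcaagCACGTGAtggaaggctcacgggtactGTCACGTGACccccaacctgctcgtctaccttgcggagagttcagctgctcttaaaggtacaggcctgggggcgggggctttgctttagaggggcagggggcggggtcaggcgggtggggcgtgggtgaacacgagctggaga
Igf2r: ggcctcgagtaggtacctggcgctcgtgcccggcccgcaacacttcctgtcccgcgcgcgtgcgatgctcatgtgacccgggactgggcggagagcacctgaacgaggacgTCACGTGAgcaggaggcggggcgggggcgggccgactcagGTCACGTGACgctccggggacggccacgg
Lamp1: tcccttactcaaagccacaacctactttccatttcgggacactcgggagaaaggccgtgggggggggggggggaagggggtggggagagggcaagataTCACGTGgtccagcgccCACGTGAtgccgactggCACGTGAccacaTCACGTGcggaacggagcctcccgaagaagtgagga
Mcoln1: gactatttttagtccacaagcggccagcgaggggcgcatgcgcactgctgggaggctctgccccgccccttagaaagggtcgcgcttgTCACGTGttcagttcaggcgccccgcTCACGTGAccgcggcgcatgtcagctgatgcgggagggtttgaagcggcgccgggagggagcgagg

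In Lamp1 the first letters of 4 cores lie 61, 45, 28 and 15 bases before the start, in Mcoln1 those of 2 cores lie 71 and 45 bases before it, and in Gaa that of the single core lies 140 bases before it.

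**Figure D1:**
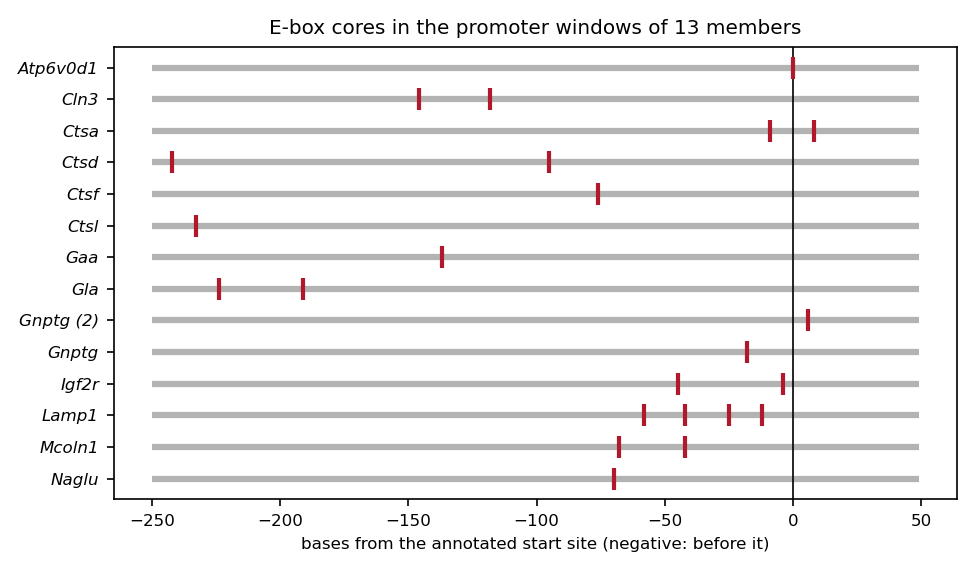
Position of every CACGTG core (red marks, at the middle of the 6 letters) in the 300-base RefSeq promoter windows (grey bars) of the 13 members that hold one, in bases from the annotated start site; Gnptg has 2 overlapping windows. The Lamp1 window holds 4 cores, and those of Cln3, Ctsa, Ctsd, Gla, Igf2r and Mcoln1 hold 2 each.

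In gastrocnemius, loss of Site-1 Protease in the fibres was compared with floxed controls to ask which lysosomal genes respond. One member fell and none rose. Gaa, the acid alpha-glucosidase that breaks down glycogen in lysosomes, had 295, 282, 308 and 312 CPM in knockout libraries 2, 6, 7 and 9, against 367, 339, 387, 345 and 376 CPM in control libraries 1, 3, 4, 5 and 8. Every knockout library lay below every control library. The difference was -0.28 on the log2 scale (SE 0.06, adjusted p = 0.03, edgeR quasi-likelihood test with Benjamini-Hochberg adjustment over 16393 genes). The gene lies at chr11:119267887-119285454 on the plus strand. That call of 1 in 35 members (2.86%) stands beside 3.78% of all genes tested, 1.77% higher and 2.01% lower. The call ended in most omissions of 1 library. Its adjusted p lay between 0.0512 and 0.11 without control library 1, 4, 5 or 8 or knockout library 6 or 9. The log2 difference stayed between -0.30 and -0.25 over the 9 omissions.

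**Figure D2:**
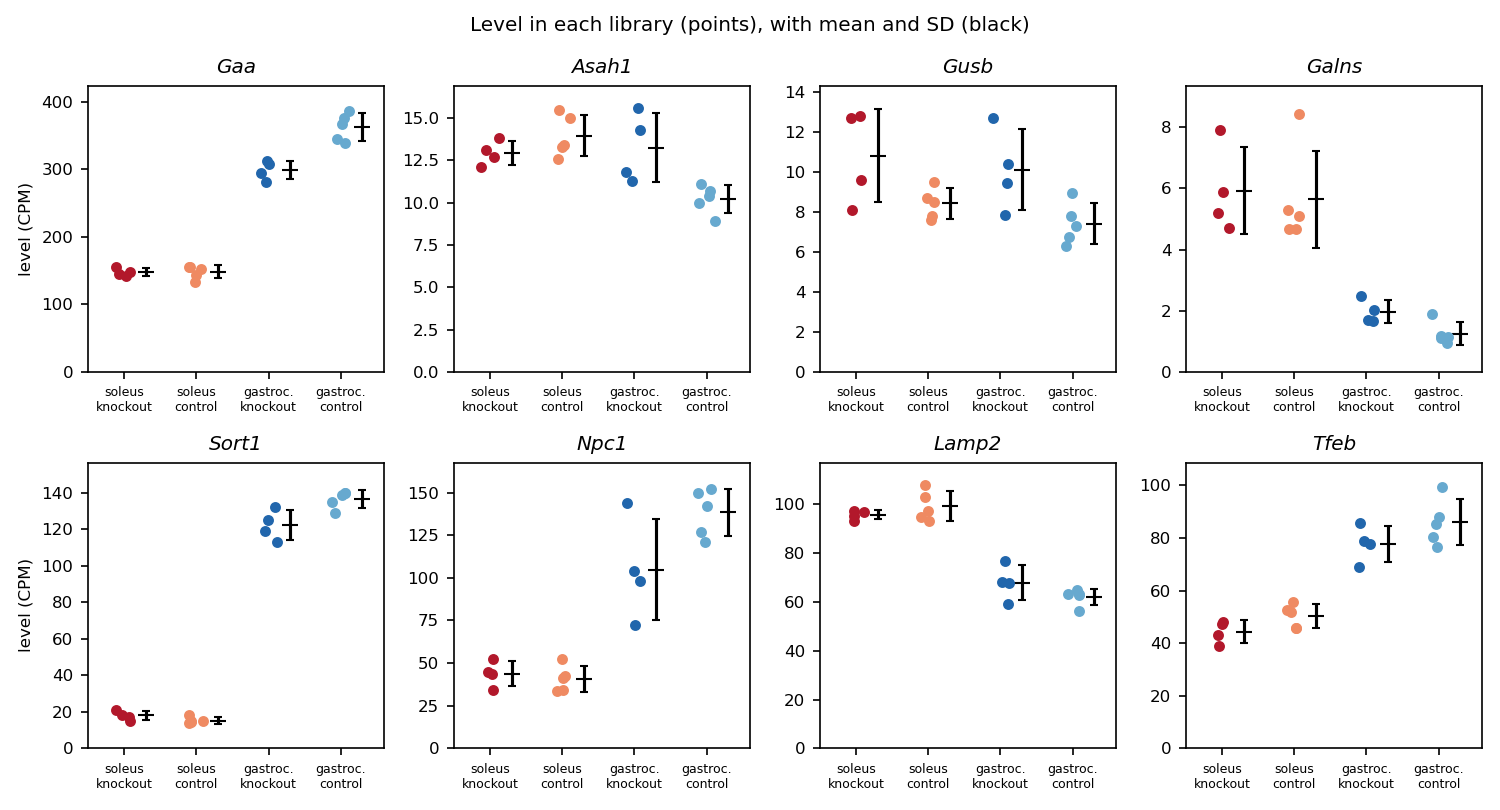
Level in CPM of 8 members in every library (points), with the mean and SD of each group in black; the 4 groups run from knockout soleus to control gastrocnemius. Gaa is lower in all 4 knockout than in all 5 control gastrocnemius libraries, and Sort1 lies between 13.9 and 21.2 CPM in soleus and between 113 and 140 CPM in gastrocnemius.

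Of the other soluble proteins, Asah1, the acid ceramidase, was the only member whose knockout gastrocnemius libraries all lay above the controls. It had 14.3, 11.8, 15.6 and 11.3 CPM in knockout libraries 2, 6, 7 and 9, against 9.98, 10.7, 8.94, 11.1 and 10.4 CPM in controls, a log2 difference of 0.37 (SE 0.11, adjusted p = 0.0723 with edgeR). With DESeq2 the adjusted p was 0.0472, and in a fit of all 18 libraries it was 0.0359. In the 9 edgeR fits with 1 library left out it ran from 0.0523 to 0.207, and none passed. Groups without overlap made up 8.41% of all genes tested, 3.79% higher and 4.62% lower, and among the members they were Asah1 and Gaa.

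Gusb, the beta-glucuronidase of glycosaminoglycan breakdown, had 7.85, 10.4, 12.7 and 9.42 CPM in knockout gastrocnemius, against 7.81, 8.92, 6.29, 7.28 and 6.72 CPM in controls. Only knockout library 2 fell among the controls. The log2 difference was 0.45 (SE 0.14, adjusted p = 0.0924 with edgeR), and the adjusted p was 0.0244 without knockout library 2 and 0.0364 with no filter on low counts. Over the 9 omissions of 1 library it ran from 0.0244 to 0.253 and was under 0.05 in 1 of them. Galns, the sulfatase of keratan sulfate breakdown, had 1.70, 2.02, 2.49 and 1.67 CPM in knockout libraries and 1.89, 0.937, 1.18, 1.09 and 1.14 CPM in controls. Its control library 1 lay within the knockout range, and the log2 difference of 0.65 (SE 0.24) missed the threshold at an adjusted p of 0.147. The cysteine protease Ctsb averaged 234 ± 55.2 CPM in knockout and 190 ± 13.2 CPM in control gastrocnemius (SD, n = 4 and 5). Its log2 difference was 0.30 with an adjusted p of 0.219 (edgeR), which was 0.038 without knockout library 2. Over the 9 omissions of 1 library the difference of Ctsb ran from 0.13 to 0.40. The adjusted p ran from 0.038 to 0.487 and was under 0.05 in 1 of them. Reads of Ctsb may include some of Fdft1, a gene of cholesterol synthesis that overlaps it on the other strand, with a mean count of 19.6% of that of Ctsb.

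As a class, 16 of the 21 soluble proteins had a positive log2 difference in gastrocnemius, with a median of 0.15 and a range from -0.28 to 0.65, beside 53.5% positive and a median of 0.02 over all genes tested. One library stood out in this class. Knockout library 7 was the highest of the 4 knockout libraries for 18 of the 21 soluble proteins, and without it 13 of 21 were positive with a median of 0.05. The summed level of the soluble proteins ran from 1570 to 2110 CPM in knockout and from 1680 to 1910 CPM in control gastrocnemius, and library 7 was the one at 2110 CPM.

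The 8 membrane proteins gave no call in gastrocnemius (edgeR, limma voom and DESeq2), and 1 of them, Npc1, had an unadjusted p under 0.05. Npc1, which exports cholesterol from lysosomes, had 144, 104, 72.5 and 98.3 CPM in knockout libraries 2, 6, 7 and 9, against 121, 150, 142, 127 and 152 CPM in controls. Knockout library 2 lay among the controls and the other 3 lay below all of them. The log2 difference was -0.40 (SE 0.17, adjusted p = 0.249 with edgeR), and without knockout library 2 it was -0.59 with an adjusted p of 0.0132. Over the 9 omissions of 1 library the difference of Npc1 ran from -0.59 to -0.26. The adjusted p ran from 0.0132 to 0.408 and was under 0.05 in 1 of them. Lamp1 averaged 263 ± 14.7 CPM in knockout and 276 ± 20.4 CPM in control gastrocnemius, and Lamp2, the membrane protein needed for autophagosome clearance in muscle, averaged 67.9 ± 7.19 CPM in knockout and 62.2 ± 3.27 CPM in control gastrocnemius. Their adjusted p were 0.679 for Lamp1 and 0.41 for Lamp2. The other membrane members, the V-ATPase subunits Atp6v0d1 and Atp6v1h, the calcium channel Mcoln1, the glucocerebrosidase receptor Scarb2 and Cln3, had log2 differences from -0.13 to 0.11. For the class, 2 of 8 were positive and the median was -0.07. The summed level of the 8 genes ran from 586 to 602 CPM in knockout and from 606 to 650 CPM in control gastrocnemius, without overlap, which is a description and was not tested. None of the 8 genes separated the groups by itself, and genes with high CPM weigh most in such a sum.

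In sorting and tagging, Igf2r, the large mannose-6-phosphate receptor, averaged 152 ± 9.87 CPM in knockout and 142 ± 4.09 CPM in control gastrocnemius (adjusted p = 0.417 with edgeR). The small receptor M6pr averaged 24.0 ± 2.94 CPM in knockout and 24.2 ± 1.24 CPM in control libraries (log2 difference -0.01), and Gnptg, the gamma subunit of the phosphotransferase, averaged 6.46 ± 0.994 CPM in knockout and 6.70 ± 0.738 CPM in control libraries (-0.05). Neither differed beyond the spread between libraries. Sort1, the sorting receptor sortilin that also serves GLUT4 storage vesicles, had 119, 125, 132 and 113 CPM in knockout libraries 2, 6, 7 and 9, against 140, 129, 139, 140 and 135 CPM in controls. Knockout library 7 lay above control library 3 and the other 3 lay below all controls, and the log2 difference of -0.16 (SE 0.06) had an adjusted p of 0.168. Gnptab, the Site-1 Protease substrate itself and not one of the 35, averaged 20.4 ± 0.920 CPM in knockout and 20.9 ± 1.07 CPM in control gastrocnemius (adjusted p = 0.853), so the transcript of the tagging enzyme differed by less than the spread between libraries. RNA counts do not report its cleavage. The regulators gave no call: Tfeb averaged 77.7 ± 6.72 CPM in knockout and 85.9 ± 8.81 CPM in control gastrocnemius (adjusted p = 0.401), and Tfe3 averaged 13.3 ± 0.523 CPM in knockout and 13.6 ± 0.981 CPM in control gastrocnemius (adjusted p = 0.927).

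Over all 35 members, 9 had an unadjusted p under 0.05 in gastrocnemius (25.7%), beside 18.6% of all genes tested. They were Ctsb, Ctsl, Galns, Gusb, Asah1 and Npc2 with positive differences and Gaa, Npc1 and Sort1 with negative ones.

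**Figure D3:**
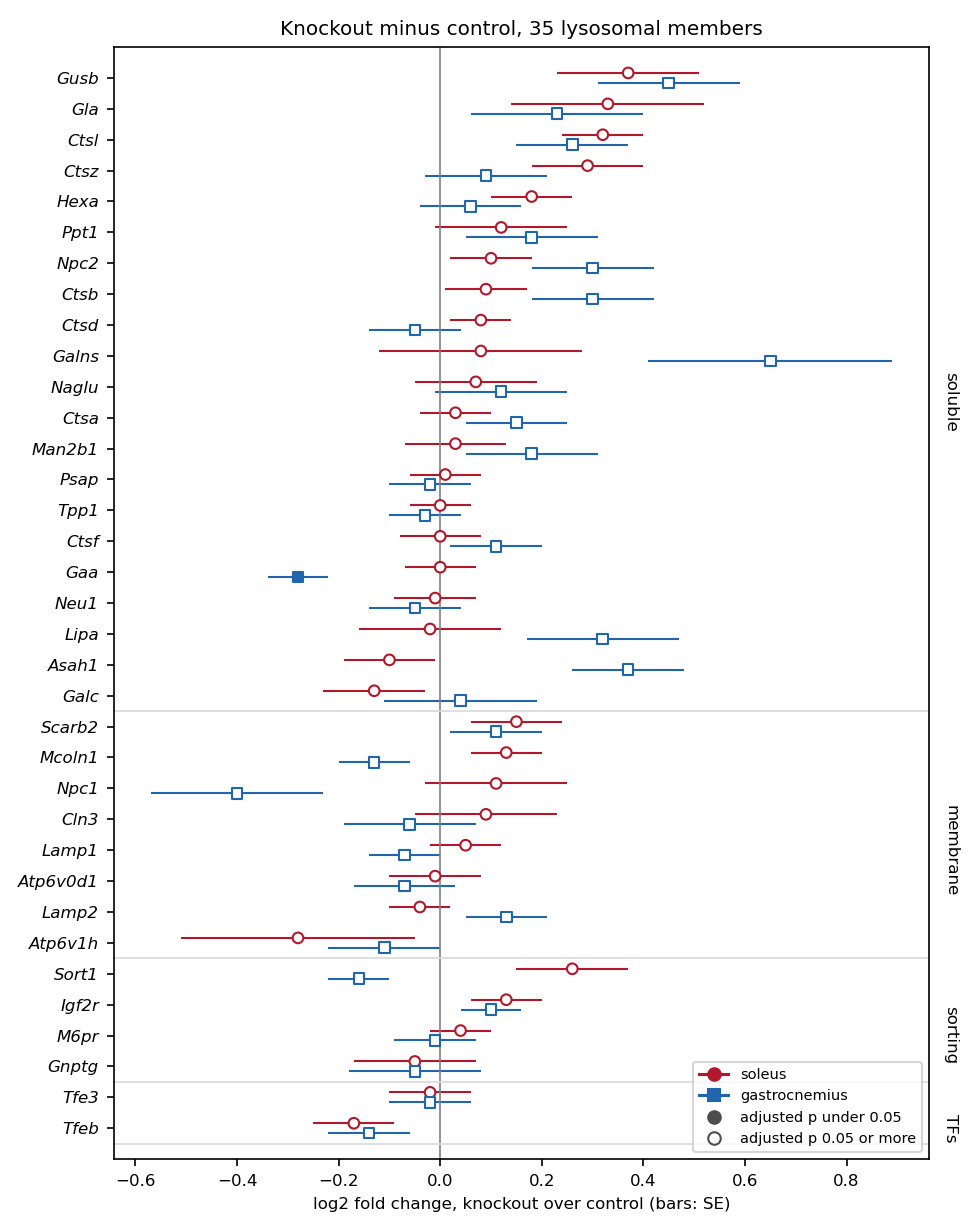
Log2 fold change, knockout over control, of the 35 members by class in soleus (red circles) and gastrocnemius (blue squares), with bars of 1 SE; filled symbols have an adjusted p under 0.05 and TFs are the transcription regulators. Gaa in gastrocnemius, at -0.28, is the only filled symbol.

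In soleus the same comparison gave no call among the members with edgeR, DESeq2 or limma voom, beside 0.0553% of all 18087 genes tested with edgeR (10 genes). Of the members, 5 (14.3%) had an unadjusted p under 0.05, beside 8.19% of all genes, and all 5 differences were positive. The smallest p belonged to Ctsl, the cysteine protease cathepsin L. It had 67.9, 79.3, 82.8 and 79.4 CPM in knockout libraries 35, 39, 40 and 42, against 63.5, 68.9, 61.9, 55.4 and 62.3 CPM in control libraries 34, 36, 37, 38 and 41. Knockout library 35 lay just under the highest control and the other 3 lay above all controls, and the log2 difference was 0.32 (SE 0.08, adjusted p = 0.234). Ctsl stood at 50.8, 51.0, 76.8 and 60.2 CPM in knockout gastrocnemius, against 47.2 to 52.7 CPM in its controls, a difference of 0.26 with an adjusted p of 0.194.

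The other 4 were Gusb, Ctsz, Sort1 and Hexa. Gusb had 8.11, 9.58, 12.8 and 12.7 CPM in knockout soleus, against 7.59 to 9.50 CPM in control soleus, a log2 difference of 0.37 (SE 0.14, adjusted p = 0.496). The carboxypeptidase Ctsz averaged 14.4 ± 2.37 CPM in knockout and 11.8 ± 0.803 CPM in control soleus (log2 difference 0.29, adjusted p = 0.497). Where the counting used no strand, reads of Ctsz and of Nelfcd, which overlaps it on the other strand, may not have been told apart. Sort1 had 17.4, 15.2, 21.2 and 18.5 CPM in knockout soleus, against 13.9, 14.2, 14.7, 14.7 and 18.2 CPM in control soleus, a difference of 0.26 (SE 0.11, adjusted p = 0.556). Control library 41 lay within the knockout range. Hexa, the alpha subunit of the hexosaminidase that degrades ganglioside, averaged 39.4 ± 3.44 CPM in knockout and 34.9 ± 2.70 CPM in control soleus (difference 0.18, adjusted p = 0.591).

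Gaa did not show in soleus the difference it had in gastrocnemius: it had 156, 145, 148 and 142 CPM in knockout libraries and 156, 133, 144, 155 and 153 CPM in controls, a log2 difference of 0.00 (SE 0.07). Of the phosphotransferase genes, Gnptg averaged 5.14 ± 0.191 CPM in knockout and 5.35 ± 0.692 CPM in control soleus, and Gnptab 14.2 ± 1.53 CPM in knockout and 12.7 ± 0.806 CPM in control soleus. Tfeb averaged 44.4 ± 4.24 CPM in knockout and 50.4 ± 4.43 CPM in control soleus, and Tfe3 14.3 ± 1.03 CPM in knockout and 14.6 ± 1.01 CPM in control soleus. The adjusted p of these 4 genes ran from 0.625 to 0.966. By class, 17 of 21 soluble proteins, 5 of 8 membrane proteins, 3 of 4 sorting genes and neither regulator had a positive difference. Their medians were 0.07, 0.07, 0.08 and -0.10. Over all 18087 genes tested, 49.9% were positive and the median was -0.0. No member separated its groups without overlap, beside 2.55% of all genes. The ranges of the summed levels overlapped too, from 1260 to 1390 CPM in knockout and from 1240 to 1300 CPM in control soleus for soluble proteins, and from 502 to 579 CPM in knockout and from 512 to 546 CPM in control soleus for membrane proteins.

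The knockout differences had opposite signs in the 2 muscles for 14 of the 35 members. No share over all genes is set beside this count, and some signs were not stable. The soleus difference of Gaa, for example, ran from -0.03 to 0.02 when 1 library was left out. Tested directly in a fit of all 18 libraries, the difference between the 2 knockout effects passed for no member with edgeR, DESeq2 or limma voom, beside 0.0703% of 18494 genes with edgeR. Among members, 4 had an unadjusted p under 0.05, beside 5.4% of all genes. Soleus minus gastrocnemius, the effects differed by 0.27 for Gaa (adjusted p = 0.569), -0.48 for Asah1 (adjusted p = 0.433), 0.41 for Sort1 (adjusted p = 0.476) and 0.25 for Mcoln1 (adjusted p = 0.658). The call of Gaa in gastrocnemius alone is therefore not shown to differ between the muscles.

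Whole muscle also holds macrophages, which are rich in lysosomes. Of 12 macrophage markers, all of them detected, 11 had a positive knockout difference in gastrocnemius (median 0.64, with Itgam called by edgeR, 5 called by DESeq2 and 0 by limma voom). In soleus 11 were again positive (median 0.51, with 0 called by edgeR, 1 by DESeq2 and 0 by limma voom, and 6 at an unadjusted p under 0.05). Their summed level ran from 160 to 308 CPM in knockout gastrocnemius and from 118 to 171 CPM in control gastrocnemius, and from 96.5 to 172 CPM in knockout soleus and from 74.6 to 123 CPM in control soleus. The highest was again gastrocnemius knockout library 7, and without it 11 of 12 markers were positive with a median of 0.29. Fibroblast markers were also higher, with 9 of 9 positive in gastrocnemius (median 0.23) and 8 of 9 in soleus (median 0.27). With edgeR none of the fibroblast markers was called, and 3 in gastrocnemius and 1 in soleus had an unadjusted p under 0.05. In whole muscle, more cells of a type and more RNA per cell cannot be told apart, and the part of these cells in the knockout differences of the members was not tested. Markers of fibres and of other cell types were read as well. Of 5 satellite cell markers, Pax7 and Cdh15 were called by edgeR in gastrocnemius, 1 higher and 1 lower. There 3 of the 5 were positive (median 0.12). In soleus none of them was called, and 2 of the 5 were positive (median -0.01). In gastrocnemius, where Gaa was at -0.28, 11 of 12 skeletal muscle fibre markers had a negative difference (median -0.22, 6 at an unadjusted p under 0.05, none called by edgeR), as had all 5 adipocyte markers (median -0.44) and all 6 Schwann cell markers (median -0.22), while 7 of 8 endothelial markers were positive (median 0.18). In soleus, where Gaa was at 0.00, 8 of 12 fibre markers were negative (median -0.03), all 5 adipocyte markers (median -0.40) and all 6 Schwann cell markers (median -0.57) again, and 5 of 8 endothelial markers (median -0.03).

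**Figure D4:**
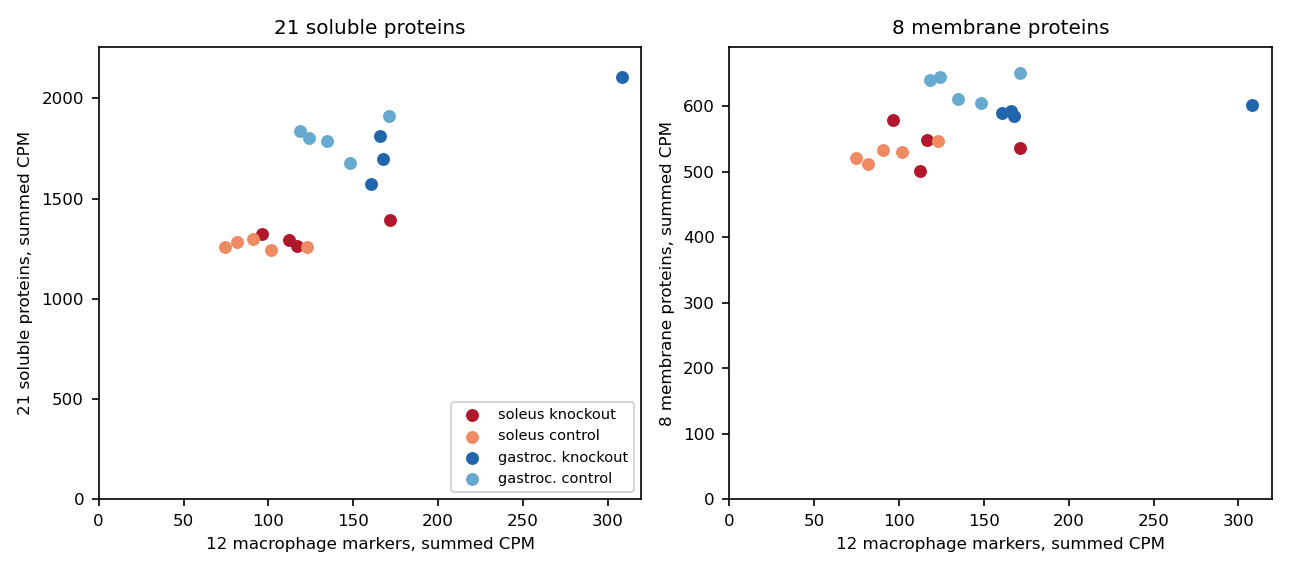
Summed level in CPM of the 21 soluble proteins (left) and of the 8 membrane proteins (right) against the summed level of 12 macrophage markers, one point per library, with all axes starting at 0. Gastrocnemius knockout library 7 lies apart, at 308 CPM for the markers and 2110 CPM for the soluble proteins.

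Beyond the members, 139 further genes of the lysosome, its acidification and sorting, of mTORC1 and TFEB regulation and of autophagy were counted. In gastrocnemius 133 were tested, and 3 rose and 4 fell in the knockout (5.26% called, beside 3.78% of all genes tested). Of the 133, 31 (23.3%) had an unadjusted p under 0.05, beside 18.6% of all genes, and the median log2 difference was 0.01. These shares lie near those of all genes. The V-ATPase subunit Tcirg1 had 7.48, 7.98, 9.19 and 7.49 CPM in knockout libraries 2, 6, 7 and 9, against 5.21 to 5.92 CPM in controls (log2 difference 0.55, SE 0.11, adjusted p = 0.014 with edgeR), and its adjusted p stayed under 0.05 when any 1 library was left out. The clathrin adaptor Gga2, which recruits mannose-6-phosphate receptors at the Golgi, averaged 24.7 ± 4.42 CPM in knockout and 17.7 ± 0.962 CPM in control gastrocnemius (0.48, adjusted p = 0.0223). The asparagine-specific protease Lgmn averaged 34.0 ± 10.2 CPM in knockout and 21.4 ± 2.06 CPM in control gastrocnemius (0.67, adjusted p = 0.0476, and 0.137 with no filter on low counts).

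Of the 4 that fell, 3 belong to the list of mTORC1 and TFEB regulation, of which 21 genes were tested (14.3% called lower, beside 2.01% of all genes tested). The lists were chosen with earlier results of these data known, so this share is a description and was not tested. The GTPase gene Rragd, which helps mTORC1 act on TFEB at the lysosome, averaged 207 ± 22.6 CPM in knockout and 265 ± 16.9 CPM in control gastrocnemius (-0.36, adjusted p = 0.0253). Its relative Rragb averaged 0.650 ± 0.118 CPM in knockout and 1.36 ± 0.333 CPM in control libraries (-1.05, adjusted p = 0.0439, and 0.0594 with limma voom). Ppp3cb, a catalytic subunit of calcineurin, the phosphatase that releases TFEB to the nucleus, averaged 143 ± 8.75 CPM in knockout and 175 ± 11.5 CPM in control libraries (-0.29, adjusted p = 0.0315). Optn, an autophagy receptor, averaged 53.0 ± 10.8 CPM in knockout and 72.9 ± 3.16 CPM in control libraries (-0.46, adjusted p = 0.0372). Omitting 1 library ended the call of Gga2 (adjusted p from 0.0512 to 0.0697 without control 1, 4 or 5 or knockout 6, 7 or 9), of Rragd (0.0505 to 0.0879) and Ppp3cb (0.0514 to 0.0843) without control 1, 4, 5 or 8 or knockout 6 or 7, of Optn (0.0565 to 0.124, every library except knockout 2), of Rragb (0.0632 to 0.135, every library except control 3 and knockout 2) and of Lgmn (0.0512 to 0.118, every library except knockout 2 and 7). In soleus 0 of 134 tested genes passed with edgeR, 2 with DESeq2 and 0 with limma voom, beside 0.0553% of all genes with edgeR. An unadjusted p under 0.05 was found for 11 of the 134 (8.21%), beside 8.19% of all genes, and the median was 0.04.

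The muscle itself made far more difference than the knockout. In control mice, 26 of the 35 members (74.3%) differed between soleus and gastrocnemius, 9 higher and 17 lower in soleus, beside 49.3% of 18494 genes tested, 27.4% higher and 21.9% lower. The median member was at -0.20, against 0.08 over all genes. In the knockout mice 22 members (62.9%) differed, 6 higher and 16 lower, beside 37.8% of all genes, 19.2% higher and 18.5% lower. Their libraries are other ones, but both comparisons came from 1 fit of all 18 libraries, with a shared scaling and spread. In a fit of the knockout libraries alone the calls of Ctsa, Ctsz, Gnptg, M6pr and Man2b1 ended. Called in both genotypes in the same direction were 20 members (57.1%), 6 higher and 14 lower, beside 33.8% of all genes tested, 17.3% higher and 16.5% lower. The same sign in both genotypes was found for 34 of 35 members (97.1%), beside 85.9% of all genes. Groups did not overlap for 24 members in control mice (8 higher and 16 lower, beside 36.7% of all genes, 19.7% higher and 17.0% lower) and for 19 in knockout mice (5 higher and 14 lower, beside 32.4%, 16.5% higher and 15.9% lower).

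**Figure D5:**
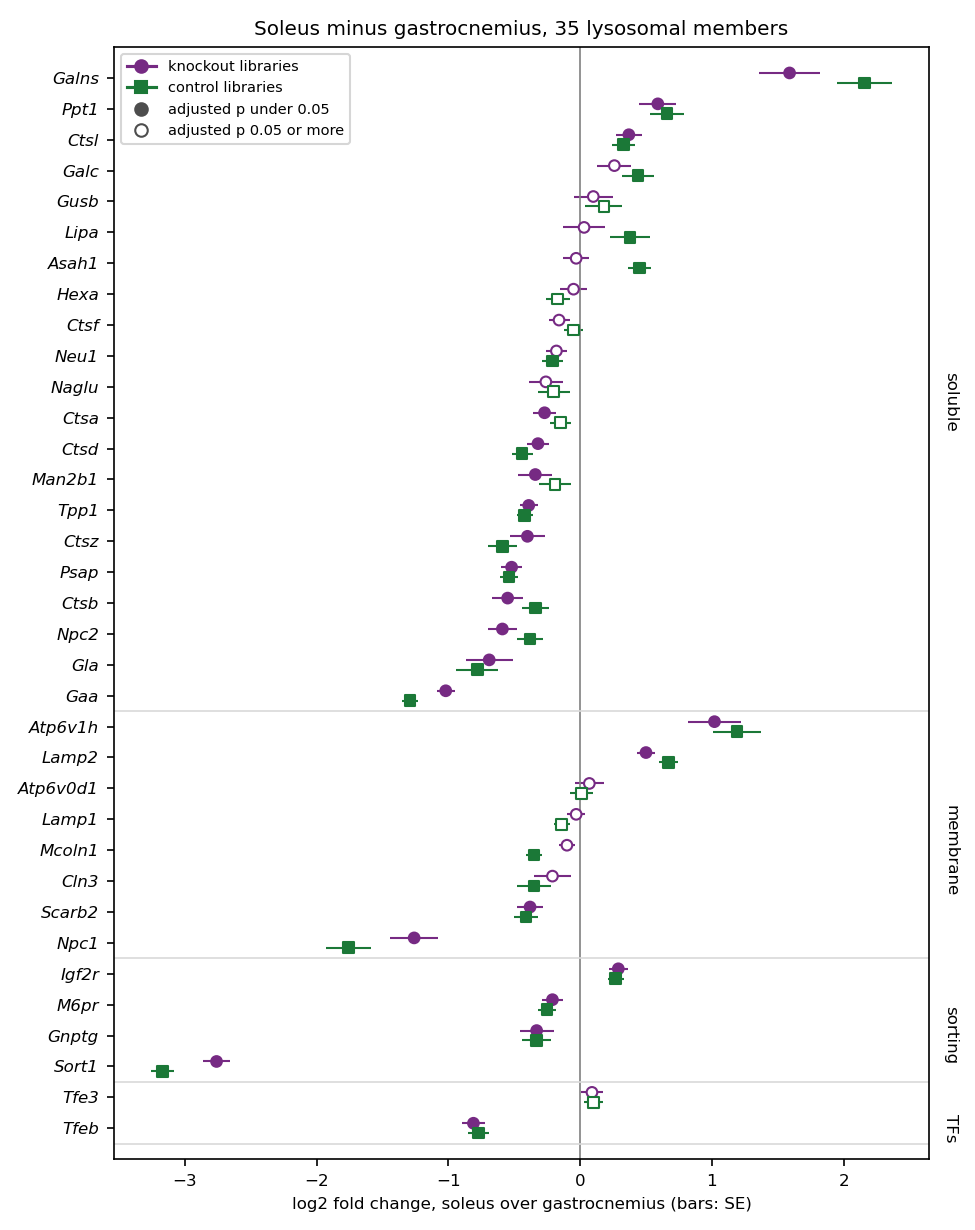
Log2 fold change, soleus over gastrocnemius, of the 35 members by class in knockout libraries (purple circles) and control libraries (green squares), with bars of 1 SE; filled symbols have an adjusted p under 0.05 and TFs are the transcription regulators. Sort1 lies farthest left, at -2.76 in knockout and -3.17 in control libraries, and Galns farthest right, at 1.59 and 2.16.

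The largest difference among the members was that of Sort1 (chr3:108284091-108361511, plus strand). Its soleus levels, given above, were at most 21.2 CPM in knockout and 18.2 CPM in control libraries, and its gastrocnemius levels were at least 113 CPM in knockout and 129 CPM in control libraries. Sortilin RNA was thus 6.77-fold lower in soleus in knockout mice (log2 -2.76, SE 0.10, adjusted p = 1.89e-14) and 9.02-fold lower in control mice (log2 -3.17, SE 0.09, adjusted p = 1.43e-16). In control mice 78 of all genes tested (0.422%) were at or below that log2 value.

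The other sorting genes differed less. Igf2r was higher in soleus, with 173, 182, 186 and 206 CPM in knockout soleus against 140, 156, 163 and 150 CPM in knockout gastrocnemius, and 161 to 180 CPM in control soleus against 138 to 148 CPM in control gastrocnemius. Soleus lay above gastrocnemius in every library of both genotypes, with log2 differences of 0.29 (SE 0.07, adjusted p = 0.00113) in knockout and 0.27 (SE 0.06, adjusted p = 5.48e-04) in control mice. M6pr was lower in soleus, at 20.8 ± 0.957 against 24.0 ± 2.94 CPM in knockout mice and 20.4 ± 0.640 against 24.2 ± 1.24 CPM in control mice (log2 -0.21 and -0.25). The receptors of mannose-6-phosphate thus lay on opposite sides. The knockout call of M6pr, with an adjusted p of 0.0373, ended without gastrocnemius library 7 or soleus library 35 or 42 (0.0872 to 0.22), with no filter on low counts (0.117) and in a fit of the knockout libraries alone (0.126). Gnptg was lower in soleus by 0.33 in both genotypes (log2 -0.33, adjusted p = 0.0429 in knockout and 0.02 in control mice), calls that ended without gastrocnemius library 7 or 9 or any 1 soleus library in knockout mice (0.0552 to 0.2), with no filter (0.095) or with the knockout libraries alone (0.0832). In control mice the call of Gnptg ended without gastrocnemius library 5 or soleus library 41 (0.0567 to 0.0658). Reads of Gnptg and of Unkl, which overlaps it on the other strand, may not have been told apart. Gnptab, its partner, was lower in soleus too, at 14.2 ± 1.53 against 20.4 ± 0.920 CPM in knockout mice (log2 -0.52, adjusted p = 2.52e-05) and 12.7 ± 0.806 against 20.9 ± 1.07 CPM in control mice (log2 -0.72, adjusted p = 3.25e-08).

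Among soluble proteins in control mice, 6 were higher and 9 lower in soleus. Galns (chr8:122578238-122611487, minus strand) was the highest. It had 4.70, 5.18, 5.89 and 7.92 CPM in knockout soleus against 1.70, 2.02, 2.49 and 1.67 CPM in knockout gastrocnemius, and 4.67, 4.66, 5.30, 8.44 and 5.11 CPM in control soleus against 1.89, 0.937, 1.18, 1.09 and 1.14 CPM in control gastrocnemius. Every soleus library lay above every gastrocnemius library, and the fold was 3.01 in knockout mice (log2 1.59, SE 0.23, adjusted p = 8.07e-06) and 4.47 in control mice (log2 2.16, SE 0.21, adjusted p = 2.18e-08). Ppt1, the thioesterase of infantile Batten disease, averaged 17.7 ± 2.56 CPM in soleus and 11.8 ± 1.76 CPM in gastrocnemius of knockout mice (log2 0.59, adjusted p = 0.00261), and 16.5 ± 2.69 CPM in soleus and 10.4 ± 1.58 CPM in gastrocnemius of control mice (log2 0.66, adjusted p = 2.33e-04). Its reads may include some of Cap1, an abundant gene that overlaps it on the other strand. Asah1 averaged 12.9 ± 0.720 CPM in soleus and 13.2 ± 2.04 CPM in gastrocnemius of knockout mice (log2 -0.03, adjusted p = 0.83), and 13.9 ± 1.24 CPM in soleus and 10.2 ± 0.822 CPM in gastrocnemius of control mice (log2 0.45, adjusted p = 3.56e-04).

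Gaa led those lower in soleus. From the levels above, it was 2.02-fold lower in knockout mice (log2 -1.02, SE 0.07, adjusted p = 7.61e-11) and 2.45-fold lower in control mice (log2 -1.29, SE 0.06, adjusted p = 1.37e-13), and no soleus library exceeded 156 CPM while no gastrocnemius library fell under 282 CPM. Gla had 1.72, 1.58, 2.11 and 1.30 CPM in soleus and 2.44, 2.57, 3.11 and 2.68 CPM in gastrocnemius of knockout mice (log2 -0.69, adjusted p = 0.00413), and 1.14 to 1.52 CPM in soleus and 1.90 to 2.78 CPM in gastrocnemius of control mice (log2 -0.78, adjusted p = 4.21e-04). The soleus and gastrocnemius values of Gla did not overlap in either genotype. Ctsz was lower by 0.40 in knockout mice (log2 -0.40, adjusted p = 0.0165, from 0.0555 to 0.111 without gastrocnemius library 7 or soleus library 35 or 39, and 0.0707 with the knockout libraries alone) and at -0.59 in control mice (adjusted p = 1.88e-04). The most abundant soluble members followed the same direction, Psap with log2 differences of -0.52 in knockout and -0.54 in control mice and Ctsd with -0.32 and -0.44. Ctsl went the other way, with 0.37 in knockout mice (adjusted p = 0.00667) and 0.33 in control mice (adjusted p = 0.00597).

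The membrane proteins split as well. Npc1 was 2.39-fold lower in soleus in knockout mice (log2 -1.26, SE 0.18, adjusted p = 3.41e-05) and 3.40-fold lower in control mice (log2 -1.76, SE 0.17, adjusted p = 1.2e-07). It had 52.4, 44.8, 43.7 and 34.4 CPM in knockout soleus and 33.5 to 52.3 CPM in control soleus, below every gastrocnemius library given above. Reads of Npc1 may include some of Rmc1, which overlaps it on the other strand. Scarb2, the receptor that brings glucocerebrosidase to lysosomes, was at -0.38 in knockout mice (adjusted p = 0.00491) and -0.41 in control mice (adjusted p = 6.7e-04).

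Atp6v1h, the H subunit of the V-ATPase proton pump, was 2.02-fold higher in soleus in knockout mice (log2 1.02, SE 0.20, adjusted p = 6.12e-04) and 2.28-fold higher in control mice (log2 1.19, SE 0.18, adjusted p = 2.73e-05). It had 25.5, 20.1, 17.5 and 14.8 CPM in knockout soleus against 11.2, 9.44, 10.3 and 7.62 CPM in knockout gastrocnemius, and 32.4, 28.2, 23.8, 19.0 and 15.2 CPM in control soleus against 9.94 to 11.2 CPM in control gastrocnemius. Its soleus libraries varied widely and stayed above all gastrocnemius libraries, whereas the other subunit among the members, Atp6v0d1, differed by 0.07 in knockout and 0.01 in control mice (adjusted p = 0.652 and 0.95). Lamp2 averaged 95.8 ± 1.89 CPM in soleus and 67.9 ± 7.19 CPM in gastrocnemius of knockout mice (log2 0.50, adjusted p = 1.21e-05), and 99.1 ± 6.03 CPM in soleus and 62.2 ± 3.27 CPM in gastrocnemius of control mice (log2 0.67, adjusted p = 1.94e-08). Lamp1 did not follow its relative: the log2 differences were -0.03 in knockout mice (adjusted p = 0.81) and -0.14 in control mice (adjusted p = 0.0657, and from 0.0173 to 0.0266 with DESeq2, with its size factors, with the 2 control groups alone or without gastrocnemius library 3). Cln3 was at -0.21 in knockout mice (adjusted p = 0.259) and -0.35 in control mice (adjusted p = 0.0265, from 0.0519 to 0.0664 without gastrocnemius library 3 or 8 or soleus library 37 or 38), and its reads may include some of the overlapping Apobr.

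Of the regulators, Tfeb had 47.3, 39.0, 43.1 and 48.2 CPM in knockout soleus against 78.7, 77.7, 69.1 and 85.5 CPM in knockout gastrocnemius, and 45.7 to 55.7 CPM in control soleus against 76.4 to 99.5 CPM in control gastrocnemius. The muscles did not overlap, and Tfeb was 1.75-fold lower in soleus in knockout mice (log2 -0.81, SE 0.09, adjusted p = 3.51e-07) and 1.71-fold lower in control mice (log2 -0.77, SE 0.08, adjusted p = 7.44e-08). Tfe3, its paralogue with the same target sequence, showed no such gap, with log2 differences of 0.09 in knockout mice (adjusted p = 0.382) and 0.10 in control mice (adjusted p = 0.257).

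Of the remaining members, 6 were called between muscles in control mice and not in knockout mice (Galc, Neu1, Asah1, Lipa, Cln3 and Mcoln1), 2 in knockout and not in control mice (Ctsa and Man2b1), and 7 in neither (Ctsf, Hexa, Naglu, Gusb, Lamp1, Atp6v0d1 and Tfe3). The test of the difference between genotypes had an adjusted p of at least 0.433 for every member, so these lists are not shown to differ. Mcoln1, the TRPML1 channel that releases lysosomal calcium, averaged 23.8 ± 0.750 CPM in soleus and 25.5 ± 1.27 CPM in gastrocnemius of knockout mice (log2 -0.10, adjusted p = 0.244), and 21.9 ± 1.16 CPM in soleus and 28.0 ± 1.12 CPM in gastrocnemius of control mice (log2 -0.35, adjusted p = 3.14e-05). The calls of the sialidase Neu1 and the acid lipase Lipa ended when some control libraries were left out, with adjusted p from 0.0592 to 0.102 for Neu1 and from 0.0612 to 0.139 for Lipa. Those of the protective protein Ctsa (0.0671 to 0.137) and the mannosidase Man2b1 (0.0703 to 0.254) did so when gastrocnemius library 7, soleus library 35 or, for Man2b1, soleus library 39 or 42 of the knockout mice was left out. Reads of Ctsa may include some of Pltp and Neurl2, which overlap it on the other strand with mean counts of 28.1% and 19.0% of that of Ctsa.

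The direction of these differences was set beside the E-box core. In control mice, 2 of the 13 with a core were called higher and 6 lower in soleus (median -0.20), beside 4 higher and 7 lower of the 15 with a window and no core (median -0.19). In the knockout comparisons the medians were -0.05 with and 0.09 without a core in gastrocnemius, and 0.07 and 0.01 in soleus.

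Markers of other cell types differed between the muscles too. All 12 macrophage markers were lower in soleus, with a median of -0.73 in knockout mice and -0.48 in control mice (7 and 4 called), and all 9 fibroblast markers were lower, with medians of -0.79 and -0.76 (6 called each time). The 6 Schwann cell markers were lower as well, with medians of -0.94 in knockout mice and -0.68 in control mice (5 and 3 called). Of 8 endothelial markers, 5 were called higher and 2 lower in knockout mice (median 0.20), and 6 higher and 0 lower in control mice (median 0.32). Of 5 adipocyte markers 1, Fabp4, was called higher in both genotypes. Of 5 satellite cell markers, 1 was called higher and 1 lower in knockout mice (median -0.16), and 2 higher and 1 lower in control mice (median 0.48). The part of these cells in the soleus levels of the members was not tested. Without gastrocnemius knockout library 7, 11 of the 12 macrophage markers remained negative in knockout mice, with a median of -0.38, and the median of the 35 members was -0.14, against -0.21 with it.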

How the data were processed

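The authors deposited, for each of 18 libraries of ribosome-depleted total RNA, a count, a CPM and an RPKM value per Ensembl gene. The submitters' processing notes name STAR 2.5.1a as well as bcl2fastq, and featureCounts 1.4.6-p5 of the Subread package, with GRCm38 as the build. How strand and multi-mapped reads were treated, and the annotation release, are items not given in the sources used here. Deposited CPM equal the deposited counts rescaled to a fixed library total (largest relative deviation 5.1e-15), and the deposited RPKM equal those CPM per kilobase (1.6e-13), so tests used the counts. Symbols came from GENCODE for 97.3% of features. Replicates were compared by chi-square over genes, which was 19.59 to 140.26 per gene between libraries of a group, and none were merged.

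Genes passed edgeR's filterByExpr (minimum count 10, total 15), libraries were scaled by TMM, and robust quasi-likelihood tests (R 4.3.3, edgeR 4.0.16) were adjusted by Benjamini-Hochberg over all genes tested, with 0.05 as the threshold. Each knockout comparison used the 9 libraries of its muscle. The muscle comparisons and the difference of knockout effects used all 18. Alternatives were RLE size factors, no filter, DESeq2 1.42.0, limma voom 3.58.1, the other choice of libraries, each library left out and, added after seeing the data, a block of libraries from the 2 muscles paired by title number. The fitting code was tested on simulated data. Named with values are members past the threshold in a knockout comparison, the 5 with the smallest p in each, the 3 highest and 3 lowest called per class between muscles, and a fixed set; Ctsb, Ctsd, Psap, Mcoln1, Atp6v0d1, Ctsa, Man2b1, Neu1 and Lipa were added after their values were seen. Members and lists were chosen with earlier results of these data known.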

Additional observations from a re-analysis of the deposited data

Results flagged for a closer look

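In 8 of 120 combinations of a gene and a group, among 30 named genes, 1 library stood far from the rest of its group by Dixon's criterion, which chance meets in about 1 in 20 groups. Gastrocnemius knockout library 7 stood high for Hexa, at 52.2 CPM against 36.3 to 38.2 CPM in the other 3, and for M6pr, at 28.4 CPM against 22.0 to 23.0 CPM. Galns was high in soleus control library 38, at 8.44 CPM against 4.66 to 5.30 CPM in the other 4, and in gastrocnemius control library 1, at 1.89 CPM against 0.937 to 1.18 CPM. Soleus control library 41 was high for Sort1, at 18.2 CPM against 13.9 to 14.7 CPM, and for Tcirg1, at 10.6 CPM against 6.56 to 7.69 CPM. Lamp2 was low in gastrocnemius control library 4, at 56.5 CPM against 63.0 to 65.1 CPM, and Ppp3cb in soleus control library 38, at 71.3 CPM against 74.8 to 75.9 CPM. No named gene passed the test of a difference between the 2 knockout effects.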

How the results depend on the processing

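Over 220 gene results, 191 kept direction where called and their side of the threshold under every alternative run, and none reversed. Results not called in the main fit counted as kept when they stayed uncalled, whatever their sign. They include every soleus knockout result and every difference of knockout effects. In gastrocnemius the knockout calls of Gaa, Gga2, Lgmn, Optn, Ppp3cb, Rragb and Rragd each ended under some alternatives, and that of Tcirg1 did not. In gastrocnemius 619 genes passed, with 206 to 1080 when 1 library was left out and 1230 with DESeq2; among members 1 passed, with 0 to 4 when 1 library was left out, and 2 with no filter (Gusb and Gaa), 2 with DESeq2 and 2 with all 18 libraries (Asah1 and Gaa both times). Of the further lysosomal and autophagy genes 7 passed, with 15 by DESeq2 and 6 by limma voom. In soleus 10 genes passed, with 3 to 66 when 1 library was left out, 48 with no filter, 168 with DESeq2 and 28 with all 18 libraries, and 0 members in all of them. For the difference of knockout effects 13 genes passed, with 2 to 23 when 1 library was left out, 7 with limma voom, 53 with DESeq2, and 0 members throughout. Between muscles, member counts stayed at 24 to 30 in control and 17 to 23 in knockout mice, beside 26 and 22. Why the counts moved was not tested. With RLE scaling the median member was at -0.25 between muscles in control mice, against -0.20 with TMM. The titles share no numbers between muscles and no label ties the libraries to mice, but libraries numbered 33 apart had the same genotype in 9 of 9 cases. Deviations from the group means correlated by 0.0466 to 0.299 within these 9 pairs, over 0.1 in 4 of them, and each of the 9 soleus libraries correlated best with its own partner, a hint of pairing from the data and not from the design. A replicate block by these pairs, an alternative chosen after seeing the data, gave 32 genes for the difference of knockout effects, with 0 members, and 27 members in control and 22 in knockout mice between muscles. The knockout comparisons within a muscle hold 1 library of each pair, so no block applies to them.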
